A study of Mus musculus with 8 samples.

Results

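The peaks described here lie in Ttn, the mouse gene for titin (RefSeq gene ID 22138), on chromosome 2 from 76534300 to 76813000 in GRCm39, a span of 278.7 kb. Every deposited peak that overlaps this span by 1 bp or more was taken, which gave 87 peaks of the 72953 in the 4 lists together. The gene was chosen by measured values, namely the number, width and covered bases of its peaks, high in the full-length lists and near 0 in the others. Numbers, widths, covered bases and enrichment of these peaks are therefore given as a description and were not tested between genotypes. The study used eCLIP, in which UV light crosslinks a protein to the RNA it touches before immunoprecipitation, to profile RNA bound by ALKBH5 in nuclei of E14TG2a mouse embryonic stem cells. Wild-type cells carry endogenous full-length ALKBH5, and in Alkbh5 del-cIDR cells the endogenous protein lacks its C-terminal intrinsically disordered region. Both were grown with LIF and the inhibitors PD0325901 and CHIR99021. Each genotype had 2 immunoprecipitates and 2 inputs, 8 samples in all, and this text rests on the 4 immunoprecipitates, each with its own list of peaks. Separate cultures for the replicates are not stated in the labels, nor whether the del-cIDR line is 1 clone. The lists give no gene names, so markers of embryonic stem cells were not checked.

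ALKBH5 is a nuclear RNA demethylase that erases N6-methyladenosine, the most common internal modification of messenger RNA. Titin is a giant protein of striated muscle that spans the sarcomere from the Z-disc to the M-band and acts as a molecular spring and as a scaffold for the thick filament. Its transcript is among the longest coding RNAs of mammals, with a very large number of exons, and 1 very long exon codes for a large part of the A-band region. From the 5′ to the 3′ end the transcript codes for the Z-disc part, the elastic I-band part, the A-band part and the M-band part with the kinase domain. Ttn lies on the minus strand in the RefSeq table for GRCm38.p6, so its 3′ end is the end with the lower coordinate. That table, used only for the strand and for neighbours, places no other gene inside Ttn, with Plekha3 as the protein-coding neighbour on the 3′ side and Ccdc141 on the 5′ side. Exon positions in GRCm39 were not used here, so peaks are placed by their distance from the 3′ bound of the gene.

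Full-length ALKBH5 gave many peaks over the 3′ part of Ttn and the del-cIDR form gave almost none. Full-length replicate 1 listed 40 peaks in the gene and replicate 2 listed 46, while del-cIDR replicate 1 listed 1 and del-cIDR replicate 2 none. The means were 43.0 ± 4.24 and 0.5 ± 0.707 peaks (SD, n = 2 per genotype). The genotypes did not overlap. Over 6829 windows of the gene's length that held a peak in at least 1 list, both full-length lists had more peaks than both del-cIDR lists in 19.7%, and the reverse held in 30.9%. Since the gene was chosen for this contrast, nothing is read from these shares. The lists themselves held similar numbers of peaks, 19892 and 16636 for full-length and 17584 and 18841 for del-cIDR. They were less alike in covered length, with 12309 kb and 7632 kb for full-length and 7088 kb and 7888 kb for del-cIDR. Sequencing depth is unknown for all 4. In these bulk nuclei, more RNA per cell, more cells with the RNA and more binding per RNA cannot be told apart.

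The same contrast held for the bases under peaks. Both full-length lists covered more bases than both del-cIDR lists in 23.4% of those windows, and the reverse held in 41.6%. Peaks covered 89.8 kb of Ttn in full-length replicate 1 and 84.4 kb in replicate 2, which was 32.2% and 30.3% of the gene. The del-cIDR peak covered 0.349 kb, and del-cIDR replicate 2 covered none. The group means were 87.1 ± 3.84 kb and 0.1745 ± 0.247 kb (SD, n = 2 per genotype). Ttn held 0.201% and 0.277% of the peaks of the 2 full-length lists but 0.731% and 1.11% of their covered length, since its peaks were wide. The median width in Ttn was 1433.5 bp in replicate 1 and 1169.5 bp in replicate 2, against 379 bp and 291 bp over the whole lists. No Ttn peak was as narrow as the minimum of its list, 297 bp and 243 bp, a width shared by 12.4% and 17.1% of all peaks of those lists.

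All full-length peaks lay in the 3′ part of the gene. In replicate 1 they ran from 76534087 to 76645375 and in replicate 2 from 76534159 to 76644767. The first peak of each list started 213 bp and 141 bp before the bound used for the gene and crossed it. Counted from that bound, the peaks spanned 111.1 kb and 110.5 kb, which was 39.9% and 39.6% of the gene. Within this span 80.9% and 76.4% of the bases lay under a peak. The remaining 167.6 kb and 168.2 kb up to the 5′ bound held no peak of the same list. Neither del-cIDR list had a peak there. Whether this part of the gene is transcribed in these cells was not examined.

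**Figure D1:**
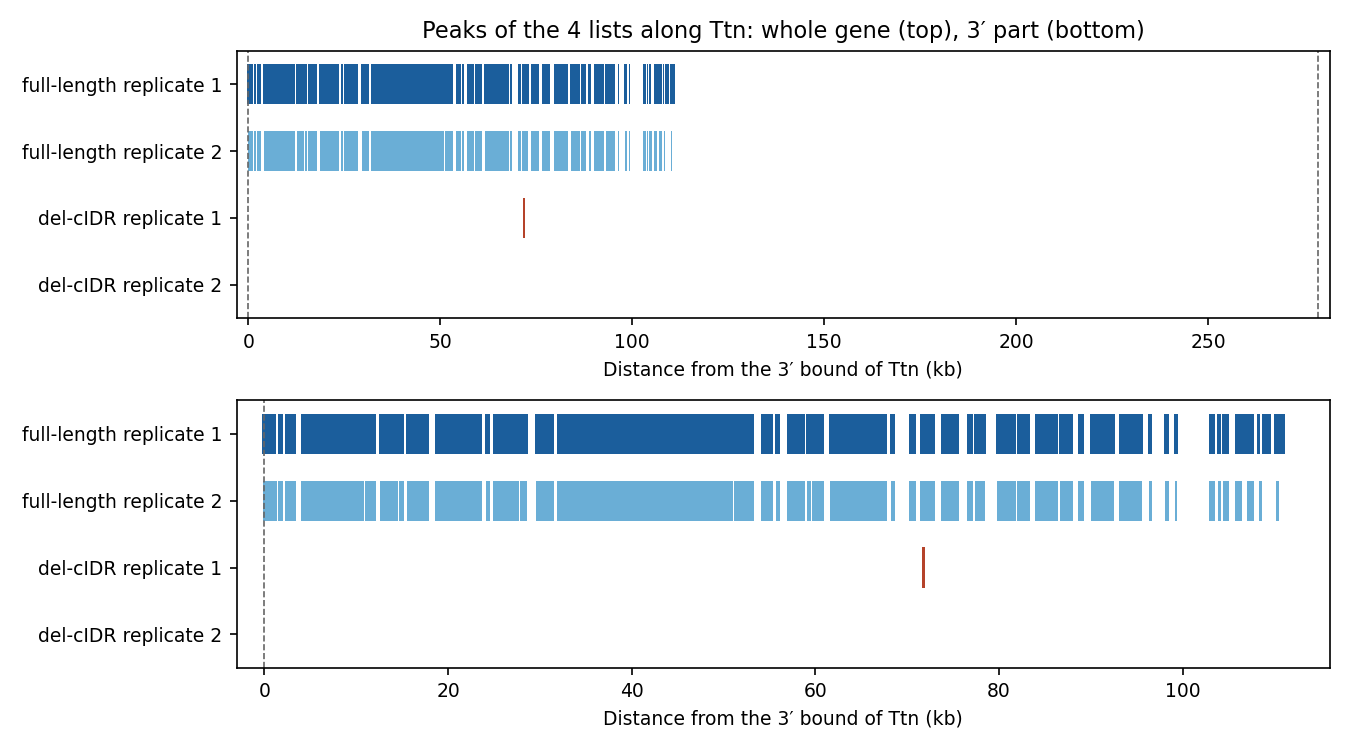
Peaks of each list drawn to scale along Ttn, with the distance from the 3′ bound in kb on the x axis, 1 row per library, and dashed lines at the bounds of the gene; gaps of under about 100 bp are too narrow to see. Both full-length rows hold peaks with gaps between them up to about 111 kb, sparser beyond 100 kb, and are empty after that. The row of del-cIDR replicate 1 holds 1 narrow peak, and that of del-cIDR replicate 2 is empty.

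Coverage was densest within 60 kb of the 3′ end and thinned towards the 5′ side. In segments of 20 kb counted from the 3′ bound, peaks of replicate 1 covered 89.4%, 91.0% and 91.1% of the first, the second and the third segment. Replicate 2 covered 86.3%, 88.8% and 88.1% of them. From 60 to 80 kb the shares were 73.3% and 70.6%, and from 80 to 100 kb 72.7% and 68.9%. The last segment with peaks, from 100 to 120 kb, had 31.7% and 19.2%, the widest relative gap between the replicates. The del-cIDR lists covered 1.745% of the segment from 60 to 80 kb in replicate 1 and nothing elsewhere.

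**Figure D2:**
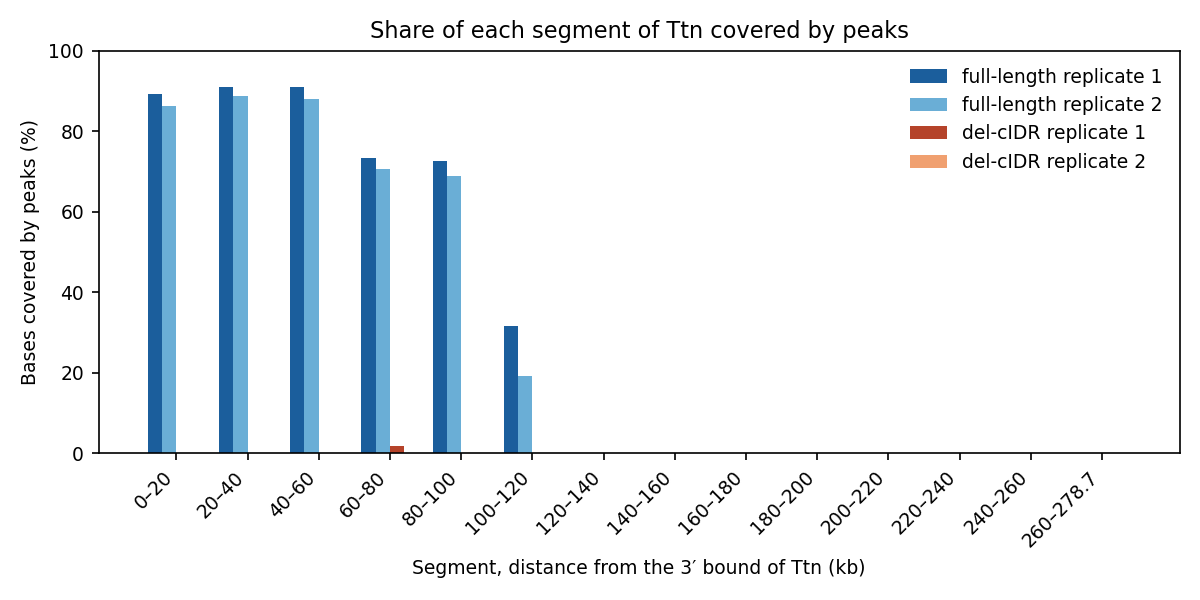
Share of bases under a peak, in percent, for consecutive 20 kb segments of Ttn counted from its 3′ bound (the last segment is shorter), with 1 bar per library and no error bars since each bar is 1 library. The full-length bars stay above 68% up to 100 kb, drop to 31.7% and 19.2% in the next segment and are at 0 beyond it.

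The widest peak of each full-length list lay in Ttn. In replicate 1 it began at 76566146, ended at 76585288 and measured 19143 bp. In replicate 2 it began at 76566205, ended at 76585274 and measured 19070 bp. The replicate 2 peak lay wholly inside that of replicate 1, with a start 59 bp later and an end 14 bp earlier. The summits, the points of highest signal, were 1 bp apart, 46.1 kb from the 3′ bound of the gene. This peak alone made up 21.3% and 22.6% of the covered length in Ttn. It was 1.48 and 1.47 times as wide as the next widest peak of its list, and 50.5 and 65.5 times as wide as the median peak. The authors' fold enrichment, each peak's ratio to the caller's background, was 36.4 in replicate 1 and 22.1 in replicate 2. No del-cIDR list had a peak within it, and the widest peaks anywhere in those lists measured 3319 bp and 3776 bp.

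Wide peaks made up most of the covered length. Peaks of 2 kb or wider numbered 15 of 40 in replicate 1 and 11 of 46 in replicate 2, where 4.15% and 2.17% of all peaks of these lists were that wide. They held 73.6% and 63.6% of the covered bases of the gene, and none was listed there for del-cIDR. Such peaks were rare in the whole del-cIDR lists, 16 of 17584 in replicate 1 and 26 of 18841 in replicate 2. Peaks of 5 kb or wider numbered 4 in each replicate, or 3.96% and 7.41% of all such peaks of the 2 lists. Peaks of 1 kb or wider numbered 25 in each. Widths were part of the reason the gene was chosen, so nothing is read from these shares.

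The 4 peaks of 5 kb or wider were the same stretches in both replicates. In order from the 3′ end, the first ran from 76538239 to 76546452 in replicate 1, 8214 bp, and from 76538302 to 76545200 in replicate 2, 6899 bp. The next ran from 76552831 to 76557960 and from 76552906 to 76557951, with widths of 5130 bp and 5046 bp. The peak of about 19 kb was the third. The fourth ran from 76595783 to 76602148 and from 76595851 to 76602133, with widths of 6366 bp and 6283 bp. Apart from the first, their widths differed by less than 100 bp between the replicates. The first was shorter in replicate 2 because a separate peak of 1149 bp followed it there, from 76545284 to 76546432, after a gap of 83 bp.

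The other peaks between 2 and 5 kb lay on both sides of the widest one. Towards the 3′ end replicate 1 had peaks from 76546815 to 76549497, from 76549763 to 76552232, from 76559182 to 76562964 and from 76563776 to 76565826. Towards the 5′ side it had them from 76585374 to 76587655, from 76591160 to 76593188, from 76613982 to 76616168, from 76618198 to 76620709, from 76624225 to 76626869, from 76627304 to 76629940 and from 76639932 to 76642049. Replicate 2 had peaks of this class from 76546875 to 76548906, from 76549828 to 76552218 and from 76559243 to 76561997 on the 3′ side of the widest peak. On its 5′ side they ran from 76585440 to 76587625, from 76614041 to 76616149, from 76618259 to 76620699 and from 76627367 to 76629904. All 7 of these overlapped a replicate 1 peak of 2 kb or wider. Of the replicate 1 peaks without such a counterpart, the one from 76563776 measured 2051 bp and its partner 1945 bp, just under the limit. The others appeared in replicate 2 as pairs of shorter peaks.

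Peaks followed each other closely. The 39 gaps between peaks of replicate 1 had a median of 411 bp and ranged from 38 bp to 3369 bp, and the 45 gaps of replicate 2 had a median of 488 bp and ranged from 33 bp to 3464 bp. Gaps longer than 1 kb numbered 4 and 5. The longest gap free of peaks in both lists ran from 76633747 to 76637115, 3369 bp. With peaks no more than 1 kb apart joined, the gene held 5 and 6 stretches in the full-length lists in place of 40 and 46 peaks, so the peak number depends strongly on where the caller splits a stretch. The longest joined stretch was 68.9 kb in each list, from the 3′ end of the gene through the fourth of the peaks of 5 kb or wider and the short peak after it.

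The strongest peaks lay in the middle of the occupied part rather than at its ends. By −log10 q, the authors' value for the strength of evidence, the leading peak of both lists ran from 76607926 to 76609910 in replicate 1, with a −log10 q of 1456 and 49.3-fold enrichment. In replicate 2 it ran from 76607981 to 76609898, with 586 and 36.1-fold. Its rank within the list was 30 of 19892 and 73 of 16636. The wide peak from 76595783 came next in both lists, with a −log10 q of 1432 and 436. The remaining 3 of the first 5 in replicate 1 were the peak from 76593304 to 76595275 with 1138, the peak of about 19 kb with 1088, and the peak from 76604436 to 76605246 with 1032. In replicate 2 they were the peak from 76616273 to 76617644 with 424, the peak of about 19 kb with 378, and the peak from 76593960 to 76595272 with 373. The leading peaks of replicate 1 thus ranged in width from 811 bp to 19143 bp and those of replicate 2 from 1313 bp to 19070 bp. The values of the 2 lists are not on 1 scale and are given side by side.

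Most Ttn peaks ranked high in their lists. Of the 40 peaks of replicate 1, 11 were among the 100 peaks with the highest −log10 q and 30 among the first 500. In replicate 2, 1 of 46 was among the first 100 and 24 among the first 500. None was among the first 10 in either list. Fold enrichment ranged from 4.34 to 49.3 with a median of 28.1 in replicate 1, and from 4.61 to 36.1 with a median of 14.4 in replicate 2. All 86 peaks lay above the median enrichment of their list, 3.80 and 3.60. By −log10 q, 38 of the 40 and 43 of the 46 lay above the median of their list. The lowest ranked 15069 of 19892 and 14101 of 16636. The lowest −log10 q in Ttn was 6.63 and 5.05, against 1.33 and 1.31 as the lowest of the lists.

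Enrichment was lowest where the peaks ended on the 5′ side. By segment of 20 kb, the median fold enrichment of replicate 1 was 24.3, 24.2, 36.6, 42.2 and 23.7 up to 100 kb and 7.39 from 100 to 120 kb. Replicate 2 had medians of 12.9, 17.4, 18.1, 17.1 and 14.0 up to 100 kb and 6.58 beyond. The median −log10 q of the last segment was 22.9 and 12.2, while the lowest among the segments before it was 359 and 130. The last peak of replicate 1, from 76644258 to 76645375, had 7.21-fold enrichment and that of replicate 2, from 76644402 to 76644767, had 6.58-fold. One peak of this segment stood above the rest of it, from 76637116 to 76637851 in replicate 1 with 41.4-fold and from 76637183 to 76637803 in replicate 2 with 10.5-fold. It was named after its value was seen. At the other end, the first peaks had 19.8-fold and 9.44-fold enrichment.

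**Figure D3:**
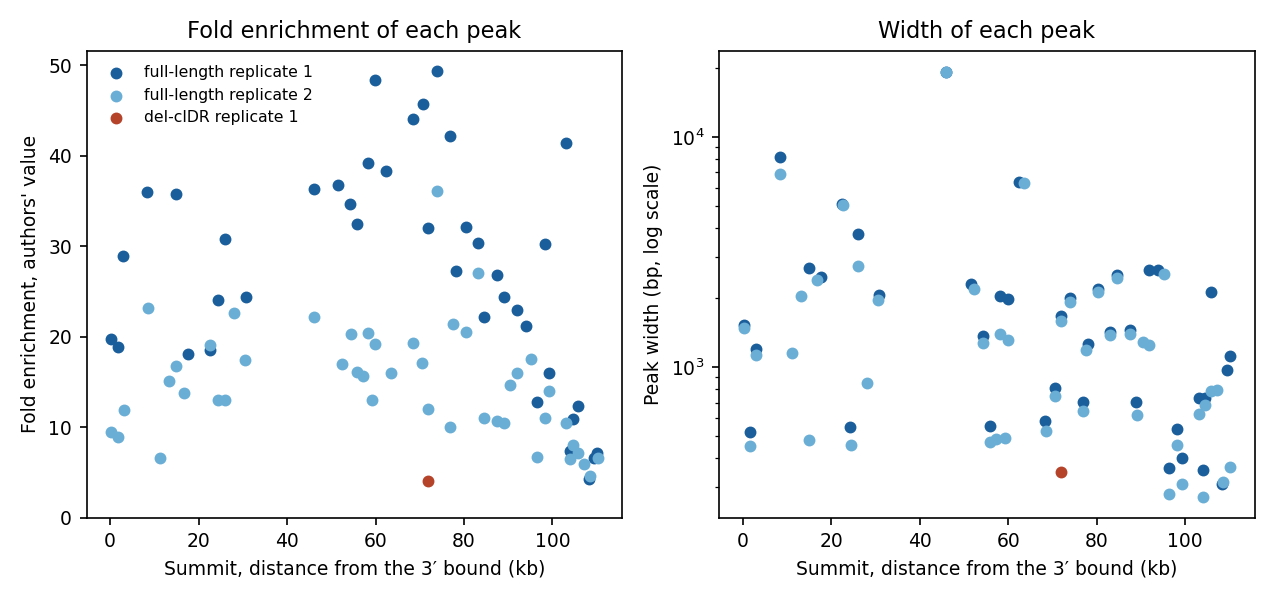
Fold enrichment (left, authors' value, linear axis from 0) and width in bp (right, log axis) of each Ttn peak against the distance of its summit from the 3′ bound in kb, with 1 point per peak and colours for the libraries; del-cIDR replicate 2 has no point. Full-length enrichment reaches 49.3 and 36.1 near 74 kb and is mostly under 13 beyond 100 kb, and the point of about 19 kb in width coincides in both lists.

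The full-length replicates placed their peaks at nearly the same bases. They shared 84066 of the 90129 bases covered in Ttn by either, a Jaccard index (shared over joint bases) of 0.933, where the 2 whole lists had 0.461. Of the bases of replicate 2 in the gene, 99.6% lay under a replicate 1 peak, and of those of replicate 1, 93.6% lay under a replicate 2 peak. Over the whole lists these shares were 82.5% and 51.2%. A replicate 2 peak overlapped 39 of the 40 replicate 1 peaks, where 54.0% of that list was overlapped, and a replicate 1 peak overlapped all 46 replicate 2 peaks, where 76.2% was. The exception, from 76642958 to 76643926, belonged to the weak segment at the 5′ side and had 6.63-fold enrichment. The gene was chosen for many wide peaks in the full-length lists, and the whole lists hold mostly narrower ones. Nothing is therefore read from the difference between the gene and the whole lists.

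The larger peak number of replicate 2 came from splits. In Ttn 32 peaks matched 1 to 1, and 7 peaks of replicate 1 each matched 2 peaks of replicate 2, while no replicate 2 peak matched more than 1. The gap between the parts of a split peak was 33 to 98 bp in 6 cases and 490 bp in the seventh, from 76639932 to 76642049. Across the 32 matched pairs the summits lay a median of 34 bp apart, and 23 pairs were within 100 bp. The Spearman correlation over these pairs was 0.976 for width, 0.935 for −log10 q and 0.584 for fold enrichment, where the 8960 matched pairs of the whole lists gave 0.752, 0.787 and 0.751. These are descriptions across peaks of 1 gene in the same libraries. They leave out the 7 split peaks, whose widths differ between the replicates because of the splits. Among the 32 matched pairs only, order by width and by −log10 q was closer between the replicates than order by enrichment.

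The single del-cIDR peak sat on a full-length summit. It ran from 76605917 to 76606265, 349 bp, with 4.04-fold enrichment and a −log10 q of 8.38, and ranked 10510 of 17584 in the list of replicate 1. It lay wholly within the full-length peaks from 76605645 to 76607301, 1657 bp, and from 76605700 to 76607277, 1578 bp. These had 32.1-fold and 12.0-fold enrichment and ranks of 70 and 308 by −log10 q. The del-cIDR summit was 2 bp from the summit of full-length replicate 1 and 5 bp from that of replicate 2. No peak of del-cIDR replicate 2 overlapped this site, so it was not repeated.

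Merging overlapping peaks of the 4 lists gave 40 regions in Ttn. Of these, 38 held a peak in both full-length lists and in no del-cIDR list, a class that made up 17.5% of the 43029 regions of the series. The others were 1 region with both full-length lists and del-cIDR replicate 1, a class of 2.18% in the series, and 1 region found in full-length replicate 1 alone. No region of the gene was found in del-cIDR lists only or in all 4 lists. The gene was chosen for this contrast, and nothing is read from the shares. With peaks within 1 kb joined in each list, 4 regions of the first class were left.

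The surroundings of Ttn held few peaks in any list. In the stretch of equal length on the 3′ side each full-length list had 1 peak and each del-cIDR list had 2, and in that on the 5′ side no list had any. The next peak beyond the 5′ bound was 826 kb and 677.7 kb away in the full-length lists and 471.3 kb away in both del-cIDR lists. On the 3′ side a narrow site starting at 76505038, 29.0 kb from the gene, was listed by all 4 libraries. There the del-cIDR lists gave 31.1-fold and 53.5-fold enrichment, with ranks of 254 and 142 by −log10 q. The full-length lists gave 9.03-fold and 2.79-fold, with ranks of 1413 and 2750. The second peak of each del-cIDR list in this stretch lay 28.0 kb from the gene and was weaker, with 2.60-fold and 3.33-fold enrichment and ranks of 9656 and 6277.

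In a grid of windows of the same length, no other window held as many bases under full-length peaks. The numbered, X and Y chromosomes were divided into windows of 278.7 kb, and those with a peak in at least 1 list were kept. On chromosome 2 the grid was placed so that Ttn filled 1 window exactly, while other genes were cut wherever the grid fell. Ttn ranked 1 by covered bases in both full-length lists, where the median window had 0.342 kb and 0.243 kb. By number of peaks it ranked 12 and 8. Peak number and covered bases were part of the reason the gene was chosen, so nothing is read from these ranks. The difference in covered bases, full-length mean minus del-cIDR mean, was 86.9 kb in Ttn and 44.4 kb in the window next in order, on chromosome 4 from 123185843 to 123464543. That window had more peaks than Ttn, 87 and 94, and also held del-cIDR peaks, 6 and 9.

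**Figure D4:**
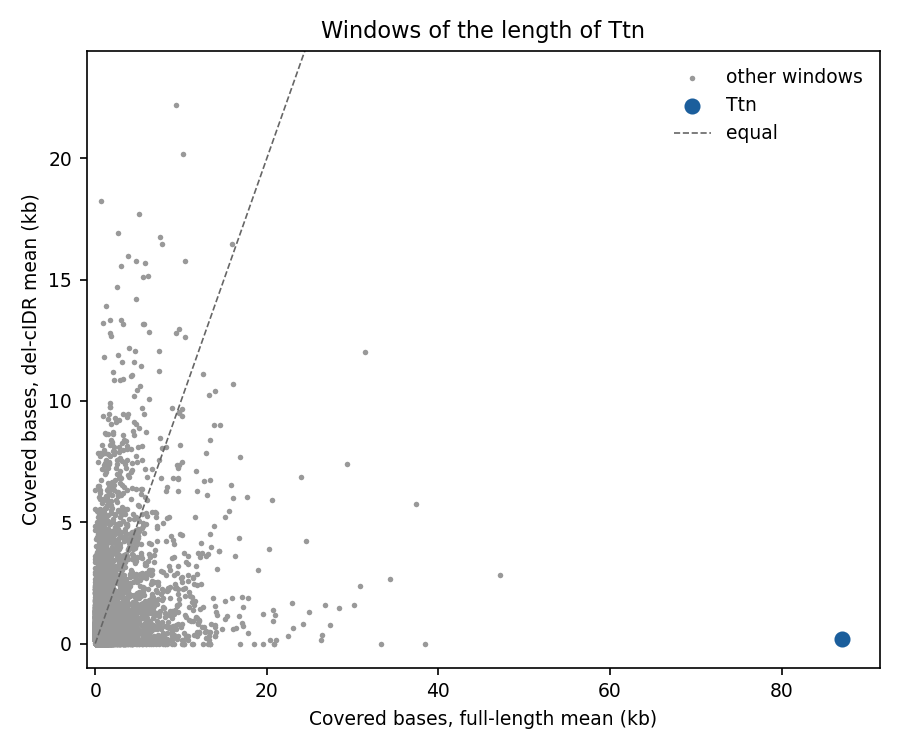
Covered bases per window of the length of Ttn, with the mean of the 2 full-length libraries on the x axis and the mean of the 2 del-cIDR libraries on the y axis, both in kb with unequal scales; each point is a window and the dashed line marks equal values. Ttn lies alone at 87.1 kb on the x axis, close to 0 on the y axis.

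The windows most like Ttn were found by the smallest distance in log2 of covered bases plus 100 over the 4 libraries. The closest lay on chromosome 2 from 176587959 to 176866659, with 32.9 kb and 19.6 kb under full-length peaks and 0.327 kb and none under del-cIDR peaks. The next, on chromosome 8 from 69675251 to 69953951, had 42.6 kb and 34.3 kb, and neither del-cIDR list had a peak there. The others were on chromosome 2 from 177424062 to 177702762 with 28.5 kb and 13.6 kb, on chromosome 18 with 48.6 kb and 18.1 kb, and on chromosome 17 from 22853483 to 23132183 with 22.2 kb and 13.4 kb. All 5 had at most 0.881 kb in a del-cIDR list. In each of them replicate 1 covered more than replicate 2, by a wider margin than in Ttn. This likeness is over 4 libraries only and was not tested.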

How the data were processed

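Peak lists of 4 eCLIP immunoprecipitates were analysed as deposited. The submitters' processing notes name MACS2, STAR, cutadapt and UMI-tools, and the build GRCm39. Tool versions, settings and any use of inputs as controls: not given in the sources used here. Peaks were listed per library. The authors deposited per peak a fold enrichment (ratio), a −log10 p, a −log10 q and a score, and as another kind of value the distance of the summit from the start. No peak carried a strand. Files named wt hold full-length libraries, and files named KI were assigned to del-cIDR, the only other genotype.

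Overlaps, merged regions and windows were computed with Python 3.11.15, numpy 2.4.6 and pandas 2.3.3, and checked on simulated lists. Covered bases were clipped to the gene, while widths were not. The gene, limits and windows were chosen with earlier results of these data known. Named peaks were those of 2 kb or wider, the 5 with the highest −log10 q per full-length list, every del-cIDR peak, and the first and last of each list. Named windows were the 5 most like Ttn.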

Additional observations from a re-analysis of the deposited data

How the results depend on the processing

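The full-length minus del-cIDR difference in Ttn was 42.5 peaks, 86.9 kb and 13 peaks of 2 kb or wider, and 38 regions were in both full-length lists only. Joining peaks within 1 kb changed these to 5 peaks, 102.4 kb, 4 wide peaks and 4 regions. A width limit of 1 kb gave 25 wide peaks and of 5 kb gave 4. Limits of 5 on −log10 q or 4 on fold enrichment and lists of 16636 peaks each removed no Ttn peak. These settings therefore could not change the numbers of peaks and regions or the covered kb, and are no check on them. Bounds widened by 10 kb gave 42.5 peaks, 87.1 kb and 38 regions. An overlap of 50% gave 37 regions. Leaving out each replicate in turn gave 39.5 to 45.5 peaks, 84.2 to 89.6 kb, 11 to 15 wide peaks and 38 to 39 regions. Ttn ranked 1 among windows by this difference in every such case. It also did so with windows shifted by 50% of their length, but 1 shifted window still held all the Ttn peaks. That shift could not split them and is no check on the rank. No paired analysis was possible because these results come from no test, and none was run by choice, since the gene was selected on this contrast. Depth is unknown, so an absent peak shows only that none passed the authors' limit.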

Other observations

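The edges of the full-length peaks in Ttn differed between the replicates on 1 side more than on the other. Over the 32 pairs matched 1 to 1, replicate 2 peaks started a median of 63 bp later than replicate 1 peaks and ended a median of 12 bp earlier. Shifts were counted with their sign, a later start and an earlier end in replicate 2 being positive. The start shift exceeded the end shift in 31 of the 32 pairs. The same held in 48.9% of the 8960 matched pairs of the whole lists, where the medians were 49 bp and 52 bp. A later end counted as negative, so this comparison is not one of the size of the shifts. The smallest start shift in Ttn was 54 bp, and 29 of the 32 start shifts were 50 to 80 bp. Of the 32 end shifts, 24 were 0 to 30 bp. The minimum peak width of the 2 lists also differed by 54 bp, and its part in these values was not tested. The start is the side nearer to the 3′ end of Ttn.

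The rank correlation of enrichment with width among the Ttn peaks differed in value between the lists. The Spearman correlation across peaks was 0.273 over the 40 peaks of replicate 1 and 0.518 over the 46 peaks of replicate 2, against 0.0857 and 0.0193 over the whole lists. Peaks of a list share their library and, in Ttn, their gene, so they are not replicates. Widths were part of the reason the gene was chosen, so nothing is read from these correlations. No peak carried a strand, so the transcript they came from was not shown.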
